A study of Mus musculus with 27 samples.

Results

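Control embryoid bodies of mouse embryonic stem cells were compared between day 6 and day 5 of differentiation, over 2 arrays at each day, which make 4 of the 27 arrays of the series. The 4 arrays are those titled with the luciferase short hairpin RNA (shRNA) and day 5 or day 6. All 4 cultures were of AB2.2, 1 embryonic stem cell line, and carried a lentivirus with enhanced green fluorescent protein and an shRNA against firefly luciferase, an insect gene that mouse cells lack, so no control without virus enters the comparison. Per the labels, cells were sorted for the fluorescent protein, aggregated in hanging drops into embryoid bodies (balls of cells that form tissues of the early embryo) and moved to culture plates at day 4.5, so both days lie after plating. The question of the study was which genes depend on Sox17, a transcription factor of the endoderm, and a parallel arm carried an shRNA against Sox17. Control arrays of days 0, 2, 4, 8 and 10 and the Sox17 shRNA arrays of days 5 and 6 were used here for context. The labels do not say whether the 2 arrays of a day came from separate differentiations, so the spread between replicates may be technical. The p-values use, for each gene, a spread pooled over the replicates of the whole series, not that of these 4 arrays alone. Differences between replicates had standard deviations (SDs) over genes of 0.18 and 0.19 at control days 5 and 6. At days 4 to 8 of the Sox17 shRNA arm the SDs were 0.36 to 0.51.

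Heart muscle cells build sarcomeres, in which thick filaments of myosin pull on thin filaments of actin that carry the troponin complex and tropomyosin. Titin spans the sarcomere, Z-discs anchor the thin filaments, and calcium released through the ryanodine receptor starts each contraction. In the embryo, mesoderm that has expressed Mesp1 becomes cardiac progenitors with Isl1, Nkx2-5, Gata and Tbx factors, and these then switch on the sarcomere genes. Myocardin is a partner of serum response factor (SRF), which binds a short DNA element, the CArG box, before many heart and smooth muscle genes. Smooth muscle actin and transgelin are transient genes of the embryonic heart as well as markers of smooth muscle.

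The promoters below are shown because they carry a CArG box and lie before 3 of the 10 heart and smooth muscle genes that rose most from day 5 to day 6. Each sequence holds the 250 bases before the gene's RefSeq start, 5′ to 3′ on the gene's strand (RefSeq, build GRCm38.p6), with the CArG box in capitals. Actc1, cardiac alpha-actin, lies on the minus strand at chr2:114052876-114053125, Myl7, the atrial myosin regulatory light chain, on the minus strand at chr11:5898783-5899032, and Acta1, skeletal alpha-actin, on the minus strand at chr8:123894776-123895025.
Actc1: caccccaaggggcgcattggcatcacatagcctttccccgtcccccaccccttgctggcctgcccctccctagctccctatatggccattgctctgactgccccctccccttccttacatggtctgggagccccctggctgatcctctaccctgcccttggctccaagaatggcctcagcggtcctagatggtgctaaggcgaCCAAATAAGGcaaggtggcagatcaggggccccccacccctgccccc
Myl7: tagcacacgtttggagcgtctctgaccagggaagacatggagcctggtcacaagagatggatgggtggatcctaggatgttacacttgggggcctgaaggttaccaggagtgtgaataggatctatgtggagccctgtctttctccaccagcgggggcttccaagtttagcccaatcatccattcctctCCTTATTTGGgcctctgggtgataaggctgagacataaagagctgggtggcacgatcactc
Acta1: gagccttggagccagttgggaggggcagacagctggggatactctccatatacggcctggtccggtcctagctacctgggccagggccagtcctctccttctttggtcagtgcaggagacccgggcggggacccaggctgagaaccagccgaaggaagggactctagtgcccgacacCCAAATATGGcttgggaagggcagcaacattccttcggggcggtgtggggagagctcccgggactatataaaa
The boxes begin 47, 61 and 73 bases before the starts of Actc1, Myl7 and Acta1. Of the 44 heart genes called at least 2-fold higher, 39 had an entry, with 51 promoters in all, and 8 of these 51 (15.7%) held a CArG box in the 250 bases, against 164 of 13640 promoters (1.2%) of all genes tested and 1.47% of all promoters of the table. The 9 promoters of the smooth muscle genes called at least 2-fold higher held it in 2 cases (22.2%). The MEF2 box was found in 2 of the 51 heart promoters (3.92%), those of Ttn and Mybpc3, against 0.403% for all genes tested. The GATA motif (GATA with A or T before it and A or G after it) was found in 15 of the 51 (29.4%), against 17.3% for all genes tested and 26.5% of all promoters of the table. Both strands were searched and each motif was counted on its own. A match describes the letters of the window, and no binding was measured.

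Values are log2 expression after robust multi-array averaging (RMA), in which 1 unit is a factor of 2. Levels below the median of all values, 5.53, are near the low end of the array, and levels of different probe sets are not comparable with each other. The 4 arrays had medians of 5.52 to 5.56. Replicates correlated over genes at 0.9952 at day 5 and 0.9953 at day 6, and their differences had SDs of 0.18 and 0.19. The 3′ minus 5′ log2 difference of a control transcript is a measure of RNA integrity. For actin it was 0.55 and 0.44 on replicates 1 and 2 of day 5 and 0.53 and 0.41 at day 6. For Gapdh it was 0.02 and -0.11 at day 5 and 0 and -0.09 at day 6. The bioB spike-in control was 6.41 to 7.01.

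From day 5 to day 6, 2382 of 13297 genes (17.9%) were called at an adjusted p below 0.05 (limma, Benjamini-Hochberg over all genes), 1488 of them higher (11.2%) and 894 lower (6.72%). At least 2-fold, 486 genes were higher (3.65%) and 86 lower (0.647%). The higher genes made 62.5% of the calls, and 48.1% when each array was centred on its median, which raised the lower calls to 1415. With the spread taken from the 14 control arrays only, 4229 genes were called. Without replicate 1 of day 5 there were 857 calls, and without replicate 1 of day 6 there were 903.

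Many genes of heart muscle rose within this day. Of 123 genes in 6 heart lists, 104 passed the filter on low values, and 59 of these rose, 44 of them at least 2-fold. Mesp1 and Mesp2 fell, and 43 were not called. The median difference of the 104 was 0.87, against -0.02 for all genes. Among all genes, 11.2% were higher, 3.65% at least 2-fold, and 6.72% were lower. The counts were largest, relative to list size, for the thick filament, with 7 of 9 measured genes higher and a median of 3.43, and the thin filament, with 8 of 10 and a median of 3.06. Calcium handling gave 8 of 19 with a median of 0.42. Of 24 smooth muscle genes, 19 were measured and 12 rose, with a median of 0.91. When 1 of the 4 arrays was left out, 45 to 51 heart genes and 11 or 12 smooth muscle genes were called higher. In these whole-culture samples, more cells of a type and more RNA per cell cannot be told apart.

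**Figure D1:**
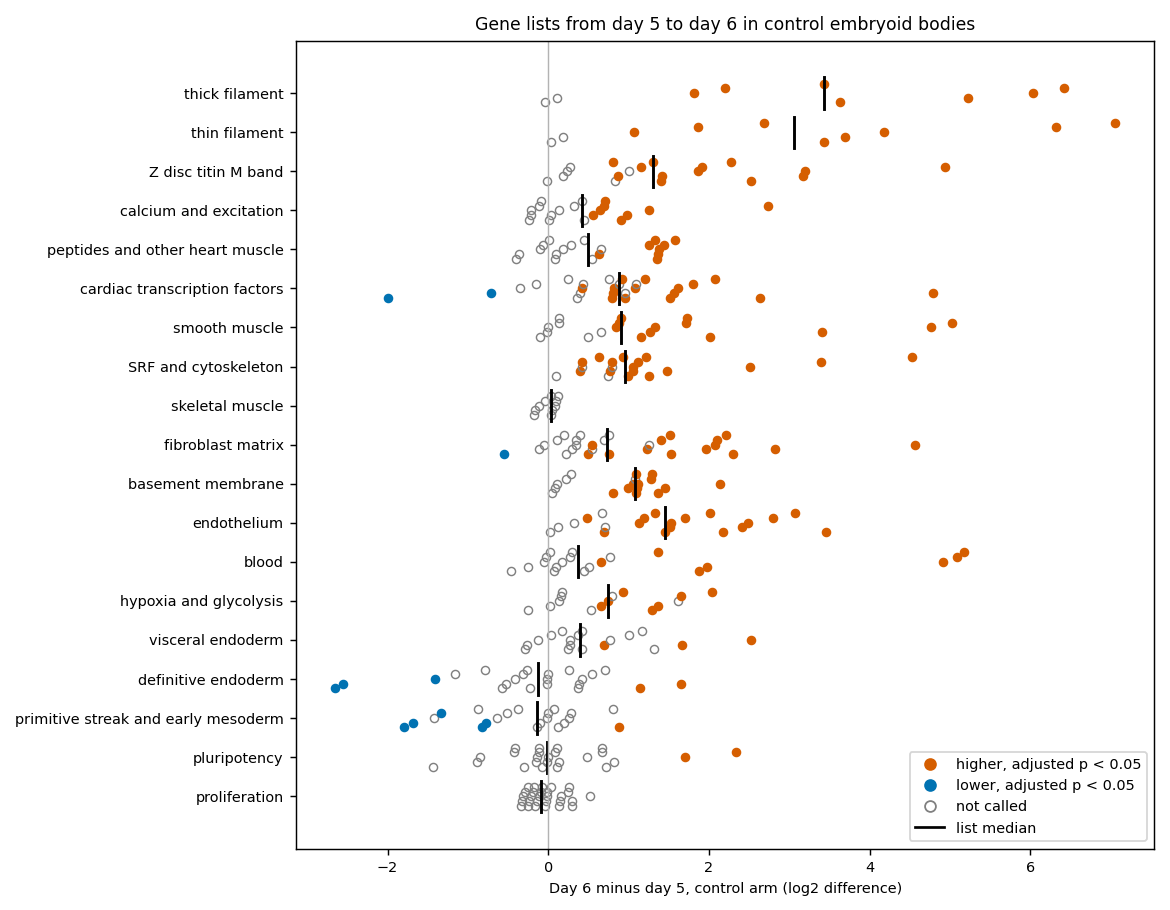
Log2 difference from day 5 to day 6 (x axis) for the measured genes of 19 lists (y axis), with 1 point a gene and a bar at each list's median. Filled points had an adjusted p below 0.05. The thick and thin filament medians lie at 3.43 and 3.06, while those of skeletal muscle and proliferation lie at 0.04 and -0.08.

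Among the myosins, by the probe set used for each gene, the embryonic and atrial forms made the steepest steps. The 2 probe sets of Myl4 gave 0.44 and 6.42 and the 2 of Myh6 gave 0.78 and 5.22, while Myl7 had 1. Myl4, the atrial essential light chain, read 4.62 and 4.40 on the day 5 arrays and 10.82 and 11.04 on the day 6 arrays, a difference of 6.42 (SE 0.23, n = 2 a day, adjusted p = 1.8e-12). Myl7, the atrial regulatory light chain, read 6.77 and 5.97 and then 12.31 and 12.50, a difference of 6.04 (SE 0.37, n = 2 a day, adjusted p = 3.34e-09). Myh6, the fast heavy chain, read 3.98 and 4.18 and then 9.39 and 9.22, a difference of 5.22 (SE 0.15, n = 2 a day, adjusted p = 8.29e-14). On the probe sets used, no day 5 array of these genes came within 2-fold of a day 6 array.

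Myh7, the slow heavy chain that dominates in the fetal ventricle, was already at 6.90 and 6.41 at day 5 and reached 10.30 and 10.28, a difference of 3.63. Myl2, the ventricular regulatory light chain, went from 4.37 and 4.59 to 7.80 and 8.02, a difference of 3.43 (SE 0.48), and rose by a further 3.45 to day 8. Mybpc3, cardiac myosin-binding protein C, and Myl3, the ventricular essential light chain, rose by 2.20 and 1.82. The 3 probe sets of Myl3 ranged from 1.66 to 3.1. Myl2 was thus still rising at day 6, while Myl4 gained 0.99 to day 8 and Myl7 differed by 0.38 with no call. Mybphl and Myh7b were not called, with differences of 0.11 and -0.04. All 7 calls of the list were made under every alternative that was run.

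The gene with the largest rise of all 13297 was Tnnt2, cardiac troponin T, the tropomyosin-binding subunit of the troponin complex. It read 3.80 and 4.11 at day 5 but 10.98 and 11.05 at day 6, a difference of 7.06 (SE 0.16, adjusted p = 2.89e-15), or 133-fold. Actc1 read 6.19 and 5.63 and then 12.20 and 12.28, a difference of 6.32 (SE 0.20, adjusted p = 1.5e-13). Acta1 read 5.52 and 5.36 and then 9.54 and 9.70, a difference of 4.18. Each had both day 6 values far above both day 5 values. The 3 probe sets of Tnnt2 ranged from 1.36 to 7.87, and Actc1 and Acta1 had 1 each. The troponin I isoforms differed. Tnni1, the slow isoform of the fetal heart, rose from 6.71 and 6.65 to 10.27 and 10.48, a difference of 3.69. Tnni3, the adult cardiac isoform, read 4.71 and 4.53 and then 4.76 and 4.55, a difference of 0.04 (95% interval -0.53 to 0.60, adjusted p = 0.953), and was 2.88 higher at day 8 than at day 6.

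Tnnc1, the calcium-binding troponin C, was at 8.20 and 7.97 at day 5, after 6.48 and 6.75 at day 4, and reached 10.70 and 10.85. Nebl, nebulette, a small nebulin of the heart, rose by 3.43 and Tpm1, alpha-tropomyosin, by 1.87. Tpm1 started from a high level, 10.39 and 10.42. Tmod1, which caps the pointed end of the thin filament, rose by 1.07, and by 0.96 with no call (adjusted p = 0.0801) without replicate 1 of day 5. Tnnt1, slow skeletal troponin T, was not called, with a difference of 0.18. Lmod2 did not pass the filter on low values.

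**Figure D2:**
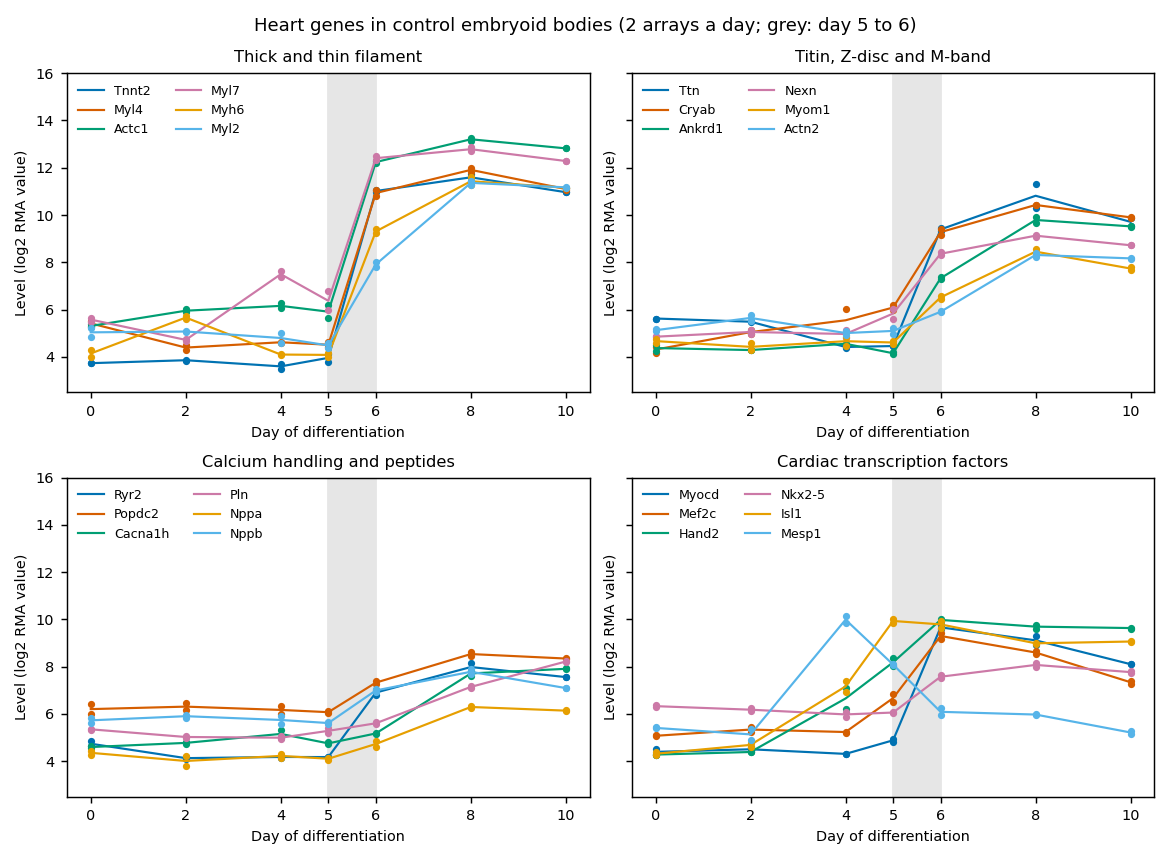
Log2 RMA level (y axis) against day of differentiation (x axis) in the control arm for 24 heart genes in 4 panels; points are the 2 arrays of a day, lines join their means and the grey band spans day 5 to day 6. Tnnt2 goes from 3.80 and 4.11 to 10.98 and 11.05 within the band, while Pln and Actn2 rise mainly after it and Isl1 before it.

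Of 27 genes of titin, the Z-disc and the M-band, 19 were measured and 13 rose, 11 at least 2-fold. The shares of all genes were 11.2% and 3.65%. Ttn, titin, read 4.45 and 4.46 at day 5 but 9.31 and 9.47 at day 6, a difference of 4.94 (SE 0.25, adjusted p = 2.57e-10). Cryab, a small heat shock protein that protects titin and desmin, rose by 3.19, Ankrd1, a titin-binding ankyrin repeat protein, by 3.17, and Nexn, an actin-binding Z-disc protein, by 2.53. Unc45b and Smyd1, which serve the folding and assembly of myosin, rose by 2.28 and 1.87. The probe sets of Cryab, Des and Smyd1 ranged from -0.03 to 3.19, from -0.18 to 1.31 and from -0.08 to 4.52.

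Actn2, sarcomeric alpha-actinin, read 5.22 and 4.97 and then 5.89 and 5.92, a difference of 0.81 (adjusted p = 0.00793), and was 2.41 higher at day 8. It was not called without replicate 2 of day 5 or replicate 1 of day 6 (0.68 to 0.82, adjusted p 0.0565 to 0.0749). Csrp3, the muscle LIM protein, rose by 1.42 and Myom1, myomesin of the M-band, by 1.91, both well short of titin. Smpx, a small protein of striated muscle, Des, desmin, the intermediate filament of muscle, and Flnc, the muscle filamin, rose by 1.40, 1.31 and 1.15. Ldb3, Tcap, Xirp1 and Nrap were not called, with differences of 0.23, 0.18, 0.27 and -0.02. For Ldb3 this depended on the probe set, as its 3 probe sets ranged from 0.23 to 3.31. Ldb3 was called at 3.31 with a stricter filter on low values (limma, adjusted p = 5.7e-09). As the mean of its probe sets it was called at 1.38 (adjusted p = 4.65e-06). By the probe sets used, the array levels of titin moved by 4.94 over a day in which those of Actn2 moved by 0.81. The 6 probe sets of Ttn ranged from 0.76 to 4.94, and Actn2 had 1, so the contrast depended on the probe set. The list had 12 or 13 higher calls when 1 of the 4 arrays was left out.

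By the probe set used for each gene, calcium handling and excitation genes had smaller differences than the filament genes. Ryr2, the calcium release channel, was the exception, moving from 4.17 on both day 5 arrays to 7.02 and 6.78, a difference of 2.73 (SE 0.18, adjusted p = 1e-08). The 2 probe sets of Ryr2 gave 0.31 and 2.73. Popdc2, a cAMP-binding membrane protein of the heart, rose by 1.25. Atp2a2, the calcium pump of the sarcoplasmic reticulum, was high at day 5, at 10.34 and 10.45, and rose by 0.98. Its 6 probe sets ranged from 0.1 to 2.07, and the 4 of Slc8a1 from -0.18 to 1.27. Cacna1c, the L-type calcium channel, and Slc8a1, the sodium-calcium exchanger, rose by 0.91 and 0.71 from levels of 4.43 to 4.85, and Slc8a1 was not called without either replicate of day 5 or replicate 1 of day 6 (0.65 to 0.76, adjusted p 0.0535 to 0.0745). The list had 8 higher calls of 19, and 5 without replicate 2 of day 5 or without replicate 2 of day 6.

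Phospholamban (Pln), which restrains the calcium pump, read 5.38 and 5.18 and then 5.65 and 5.55 and was not called (difference 0.32, adjusted p = 0.313). It was at 7.10 and 7.18 at day 8. Cacna1h, a T-type calcium channel, and Cacna2d2, a calcium channel subunit, had differences of 0.42 and -0.22 with no call, and stood at 7.80 and 7.62 and at 8.72 and 8.36 at day 8. Gja1, connexin 43 read 11.96 to 12.29 on the 4 arrays and was not called. Hcn4, a pacemaker channel gene, had no probe set with that single symbol here and was not analysed.

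In the group of natriuretic peptides and other heart muscle genes, 8 of 20 measured genes rose and 7 of these at least 2-fold. For all genes these shares were 11.2% and 3.65%. Nppb, B-type natriuretic peptide, rose by 1.38 (adjusted p = 0.0178), and Nppa, the atrial peptide, from 4.06 and 4.14 to 4.59 and 4.86, a difference of 0.63. Rbm24 and Rbm20, RNA-binding proteins that direct splicing of sarcomere genes, rose by 1.58 and 1.26. Rbm24 read 8.41 and 8.36 at day 5 and its day 8 arrays, 9.27 and 9.01, lay below the 10.16 and 9.76 of day 6 with no call. Asb2 and Trim63, ubiquitin ligase genes of muscle, rose by 1.44 and 1.37, and the muscle enolase Eno3 and muscle phosphoglycerate mutase Pgam2 by 1.35 and 1.33. Ckm, Mb and Cox7a1, which serve the energy supply of mature muscle, were not called, with differences of 0.01, -0.10 and -0.40. Without replicate 1 of day 5 the list had 4 higher calls, and without replicate 1 of day 6 it had 5. Nppb was not called when any 1 of the 4 arrays was left out, at 1.33 to 1.43 (adjusted p 0.0639 to 0.117). Rbm24 and Pgam2 were not called without replicate 1 of day 5 or of day 6 (adjusted p 0.0596 to 0.101 and 0.066 to 0.068). Nppa was not called without either replicate of day 5 or replicate 2 of day 6 (0.49 to 0.67, adjusted p 0.066 to 0.173).

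Of 27 measured cardiac transcription factors, 15 rose, 2 fell and 10 were not called, against 11.2% higher and 6.72% lower among all genes. Myocd, myocardin, read 4.82 and 4.94 at day 5 but 9.74 and 9.58 at day 6, a difference of 4.79 (SE 0.21, adjusted p = 3.6e-11), or 27.6-fold. The 2 probe sets of Myocd gave 1.34 and 4.79. Mef2c, a MADS box factor of the heart, read 6.49 and 6.84 and then 9.42 and 9.17, a difference of 2.63. Mef2c had already risen by 1.44 from day 4 to day 5. At day 8 Myocd read 9.29 and 8.93 and Mef2c 8.67 and 8.52, with no call against day 6. Srf, the partner of myocardin, rose from 7.91 and 7.94 to 9.17 and 9.10, a difference of 1.21. Nkx2-5 read 6.08 and 6.03 and then 7.63 and 7.51, a difference of 1.52 (adjusted p = 0.000171). The Iroquois genes Irx3 and Irx5 rose by 2.08 and 1.56, and Irx4, a ventricular factor, by 0.92. Irx4 was not called when any 1 of the 4 arrays was left out (0.85 to 0.99, adjusted p 0.12 to 0.147).

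Isl1 and Tbx20 had risen from day 4 to day 5, by 2.77 and 1.91, and without replicate 1 of day 4 by 2.55 and, with no call for Tbx20, 1.13 (adjusted p = 0.447). Isl1, a factor of cardiac progenitors, climbed from 6.94 and 7.38 at day 4 to 10.03 and 9.83 at day 5 and was still 9.94 and 9.63 a day later, with no call from day 5 to day 6 (difference -0.15, adjusted p = 0.869). Tbx20 went from 5.97 and 7.51 at day 4 to 8.58 and 8.71 at day 5 and then 9.52 and 9.28, again with no call (0.76, adjusted p = 0.418). Gata4 and Gata6 differed by 0.36 and 1.09 and Hand1 by 0.43, none called, from levels of 7.55 to 8.69 at day 5. Gata6 was called with the spread of the 14 control arrays only (limma, adjusted p = 0.000249). With the 4 arrays of days 5 and 6 alone, Tbx20 and Hand1 were called as well (limma, adjusted p = 0.000478 and 0.0353). Tbx5 stayed at 5.87 to 6.27. Of the control days measured, Mesp1 had its highest mean at day 4, Isl1 at day 5 and Myocd and Mef2c at day 6.

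Mesp1 and Mesp2, factors of nascent mesoderm, fell. Mesp1 read 10.12 and 9.85 at day 4, 8.07 and 8.10 at day 5 but 5.94 and 6.23 at day 6, a difference of -2.0 (SE 0.32, adjusted p = 0.000307). Mesp2 fell by 0.71 and was not called when any 1 of the 4 arrays was left out (-0.74 to -0.69, adjusted p 0.107 to 0.185). Hand2, a factor of the right ventricle, rose from 8.01 and 8.35 to 9.94 and 10.01, a difference of 1.80 (SE 0.55, adjusted p = 0.0291), but was not called when any 1 of the 4 arrays was left out (1.63 to 1.97, adjusted p 0.0707 to 0.192). Hey2 rose by 1.62 and was not called without replicate 2 of day 5 or replicate 1 of day 6 (1.41 and 1.32, adjusted p = 0.0613 and 0.107). Smarcd3, a heart-enriched subunit of a chromatin remodelling complex, rose by 1.08 and was not called without replicate 1 of day 5 or of day 6 (0.86 and 0.98). Leaving out 1 array at a time gave 8 to 11 higher calls in the list, the fewest without replicate 1 of day 6.

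Of 19 measured smooth muscle genes, 12 rose, against 11.2% of all genes. From day 4 to day 5, 4 of the 19 had fallen, against 6.17% of all genes. Tagln, transgelin, an actin-binding protein of smooth muscle, read 8.69 and 8.45 at day 4, 6.35 and 6.08 at day 5 but 11.04 and 11.43 at day 6. Its fall from day 4 was -2.36 and its rise to day 6 was 5.02 (SE 0.38, adjusted p = 6.88e-08). Acta2, smooth muscle alpha-actin, read 7.68 and 7.47 at day 5 but 12.21 and 12.47 at day 6, a difference of 4.76 (SE 0.30, adjusted p = 4.81e-09), with no fall before it. The 3 probe sets of Acta2 ranged from 0.41 to 4.76. Myl9, the smooth muscle myosin regulatory light chain, read 5.56 and 5.61 and then 8.70 and 9.30, a difference of 3.41. Cnn2 and Cnn1, calponins, rose by 2.01 and 1.73, Pdlim7 by 1.71, Smtn, smoothelin, by 1.33 and Tpm2, beta-tropomyosin, by 1.27. Cald1, caldesmon, and Csrp2, a LIM protein, were high at day 5, at 10.96 to 11.10, and rose by 0.91 and 0.88.

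Of the 19 measured smooth muscle genes, 7 were not called. Actg2, the enteric smooth muscle actin, rose from 4.35 and 4.37 to 5.22 and 5.18, a difference of 0.84, and continued to 6.82 and 7.01 at day 8. Mylk, myosin light chain kinase, Synm and Lmod1 were not called, with differences of -0.02, 0.00 and 0.49. Myh11, the smooth muscle myosin heavy chain and the defining marker of the differentiated cell, did not pass the filter on low values. Csrp1 rose by 1.15 and was not called without replicate 1 of day 5 (0.94, adjusted p = 0.0925). Tpm2 was not called from its probe set with the largest interquartile range (1.35, adjusted p = 0.0948).

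The wider set of SRF targets and cytoskeletal genes rose with 16 of 20 measured members, 9 of them at least 2-fold, with a median of 0.96. Among all genes 11.2% rose, 3.65% at least 2-fold. Ccn2 and Ccn1, matricellular proteins induced by cell tension, rose by 4.53 and 2.51, and Thbs1, thrombospondin 1, by 3.39. Ccn2 read 8.09 and 8.31 at day 4, 6.87 and 6.88 at day 5 but 11.63 and 11.19 at day 6. Actn1, Zyx, Vcl and Tln1, proteins of focal adhesions, rose by 1.25, 1.12, 1.05 and 1.05, and Egr1, an immediate early gene, by 1.22. Filip1l, a filamin-binding protein, rose by 1.48. Actb and Actg1, the cytoplasmic actins, rose by 0.40 and 0.42. Actb was not called without replicate 1 of day 5 or of day 6 (0.30 in both), nor was Actn1 (1.2 and 1.21, adjusted p 0.0753 to 0.0756), and Egr1 was not called when any 1 of the 4 arrays was left out (1.08 to 1.36, adjusted p 0.0596 to 0.0958). Actb gave -0.50 with no call by its probe set with the largest interquartile range. Without replicate 1 of day 5 the list had 9 higher calls, and without replicate 1 of day 6 it had 10.

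**Figure D3:**
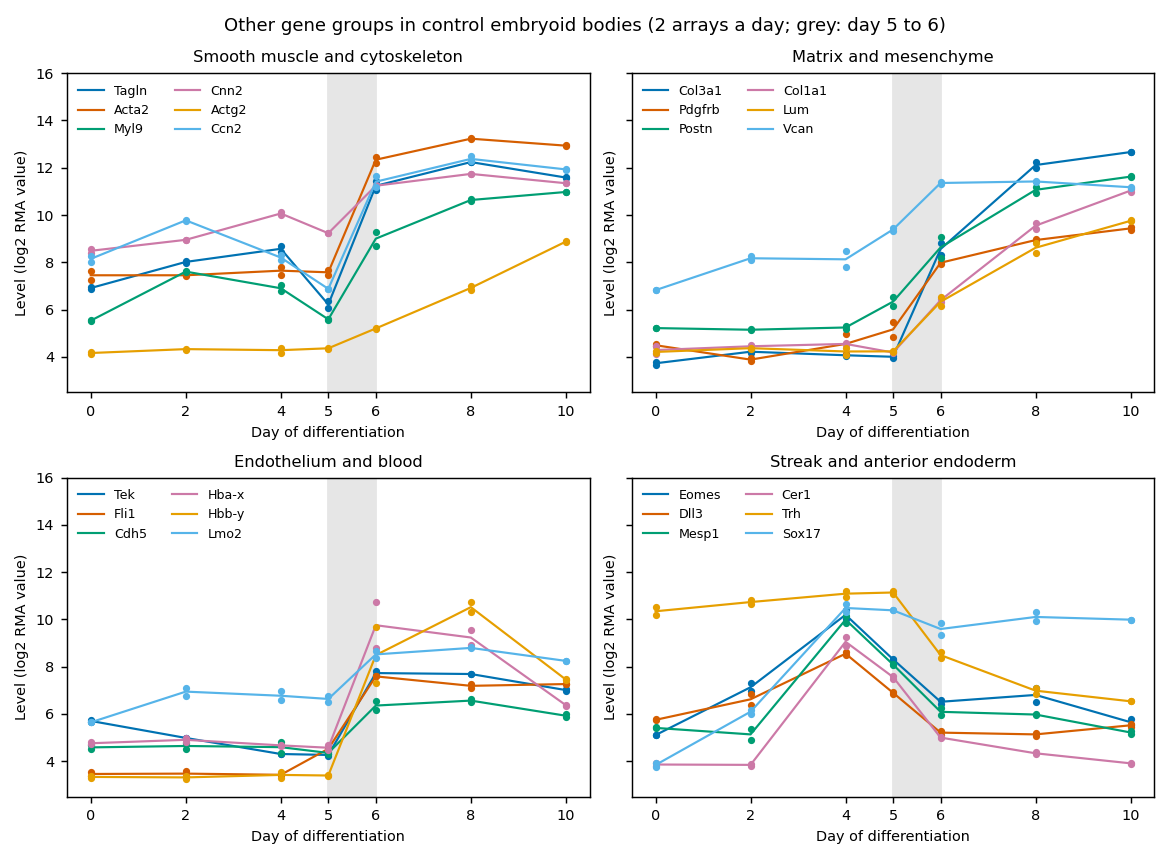
Log2 RMA level (y axis) against day of differentiation (x axis) in the control arm for 24 genes of other groups in 4 panels; points are the 2 arrays of a day, lines join their means and the grey band spans day 5 to day 6. Tagln is at 6.35 and 6.08 at day 5 before it rises, Col1a1 and Lum have their highest means at day 10, Hba-x separates the 2 day 6 arrays at 8.77 and 10.73, and Cer1 and Trh fall within the band.

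Markers of skeletal muscle and of the epicardium were checked beside those of the heart. None of the 10 measured skeletal muscle genes was called (limma; 0 at an unadjusted p below 0.05; range -0.18 to 0.12), and 12 of the 22 listed, Myog, Myf5 and Pax7 among them, did not pass the filter or had no probe set here. Of 10 measured genes of the epicardium, the outer layer of the heart, Bnc1 rose by 1.51 and Aldh1a2, the retinoic acid enzyme, fell by 1.39. For comparison with both lists, 11.2% of all genes were higher and 6.72% lower. Bnc1 was not called without replicate 1 of day 5 or either replicate of day 6 (adjusted p 0.0605 to 0.172), and Aldh1a2 was not called without replicate 2 of day 6 (-1.11, adjusted p = 0.0673).

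Genes of mesenchyme and matrix rose alongside, with 14 of 28 measured members of the fibroblast list higher and 1 lower. For all genes these shares were 11.2% and 6.72%. Col3a1, type III collagen, read 3.95 and 4.05 at day 5 but 8.30 and 8.82 at day 6, a difference of 4.56 (SE 0.33, adjusted p = 3.46e-08), or 23.6-fold. Pdgfrb, the receptor of pericytes and mesenchyme, read 4.85 and 5.47 and then 7.93 and 8.03, a difference of 2.82. Postn, periostin, Col1a1, Lum, lumican, and Tgfbi rose by 2.30, 2.21, 2.10 and 2.07. Vcan, versican, a proteoglycan of the cardiac jelly, rose by 1.96 from 9.34 and 9.44, and Fn1, fibronectin, by 1.23 from 11.10 and 11.15. Leaving out 1 array gave 10 to 12 higher calls, and Postn was not called without replicate 2 of day 6 (1.84, adjusted p = 0.0706). Fn1 was not called without replicate 1 of day 5 or of day 6 (1.16 to 1.21, adjusted p 0.0668 to 0.0749).

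Of 18 basement membrane genes, 12 rose and 10 of them at least 2-fold, with a median of 1.08. The shares of all genes were 11.2% and 3.65%. Col18a1, type XVIII collagen, rose from 8.30 and 8.50 to 10.62 and 10.46, a difference of 2.14 (SE 0.15, adjusted p = 2.04e-08). Nid1 and Nid2, nidogens, rose by 1.45 and 1.28, Col4a1 and Col4a2, type IV collagens, by 1.36 and 1.29, and Lamc1, a laminin chain, by 1.12. In all 12 called genes the level on day 6 replicate 1 exceeded that on replicate 2, as for Lamc1 at 10.47 and 9.78. Without day 6 replicate 1 the list had 5 higher calls, 1 of them at least 2-fold, and without the other 3 arrays in turn 7 to 10. Nid1 was not called when any 1 of the 4 arrays was left out (1.29 to 1.62, adjusted p 0.0541 to 0.178), Col4a1 without replicate 1 of day 5 or of day 6 (1.13 to 1.35, adjusted p 0.0565 to 0.101), and Col4a2 without either replicate of day 5 or replicate 1 of day 6 (1.02 to 1.38, adjusted p 0.0607 to 0.204).

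The same order of the day 6 arrays held for hypoxia and glycolysis genes. Of 15 measured genes 7 were higher, against 11.2% of all genes, with replicate 1 above replicate 2 in all 7. Bnip3, a hypoxia-induced mitochondrial protein, Hk2, hexokinase 2, Pfkp, a phosphofructokinase, and Egln3, an oxygen sensor, rose by 2.04, 1.65, 1.36 and 1.29. Without replicate 1 of day 5 or of day 6 the list had 1 higher call, without replicate 2 of day 5 it had 3, and without replicate 2 of day 6 it had 4. Bnip3 and Egln3 were not called when any 1 of the 4 arrays was left out (1.76 to 2.33 and 1.15 to 1.42), and Pfkp was not called without replicate 1 of day 5 or of day 6 (1.24 to 1.27, adjusted p 0.0551 to 0.057).

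Endothelial genes rose with 16 of 21 measured members, 14 at least 2-fold, and a median of 1.45. Among all genes 11.2% rose, 3.65% at least 2-fold. Tek, the angiopoietin receptor, read 4.29 and 4.23 at day 5 but 7.82 and 7.63 at day 6, a difference of 3.46 (SE 0.26, adjusted p = 5.04e-08). Fli1, an ETS factor of blood and vessel progenitors, read 4.49 and 4.55 and then 7.59 and 7.58, a difference of 3.07. Sox18, Plvap, Emcn, Tie1 and Cdh5, the vascular cadherin, rose by 2.80, 2.49, 2.41, 2.18 and 2.01, each from a level of at most 5.14. Leaving out 1 array gave 11 to 14 higher calls.

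Blood genes rose in 7 of 20 measured cases, against 11.2% of all genes. Among them were the embryonic globins, on which the day 6 arrays differed widely. Hba-x, zeta globin, read 4.45 and 4.68 at day 5 but 8.77 and 10.73 at day 6, a difference of 5.18 (SE 1.07, adjusted p = 0.00268). Hbb-y read 3.35 and 3.43 and then 7.31 and 9.66, and Hbb-bh1 6.72 and 7.10 and then 11.22 and 12.41, with differences of 5.09 and 4.91. For all 3 genes replicate 2 of day 6 was the higher and the days did not overlap. Hbb-y and Hbb-bh1 were not called without replicate 1 of day 5 or replicate 2 of day 6 (3.92 to 5.05, adjusted p 0.0632 to 0.0948). Cd34, Lmo2 and Tal1, genes of blood and vessel progenitors, rose by 1.98, 1.88 and 1.37. Without replicate 1 of day 5 or replicate 2 of day 6 the list had 4 higher calls.

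In the endoderm list 3 of 22 measured genes fell, against 6.72% of all genes, 2 rose, against 11.2%, and 17 were not called. Trh, thyrotropin releasing hormone, read 11.18 and 11.09 at day 5 but 8.60 and 8.37 at day 6, a difference of -2.65 (SE 0.25, adjusted p = 1.39e-06). Cer1, a secreted antagonist made by anterior endoderm, read 7.62 and 7.49 and then 5.00 and 4.99, a difference of -2.56 (SE 0.60, adjusted p = 0.00623). Otx2, a factor of anterior endoderm and brain, fell by 1.41. Cer1 was not called without replicate 1 of day 5 or of day 6 (-2.49 and -2.56, adjusted p = 0.0603 and 0.0516). Sox17 went from 10.38 on both day 5 arrays to 9.83 and 9.35 (difference -0.79, SE 0.80, adjusted p = 0.564), and the difference was called with the spread of the 14 control arrays only (adjusted p = 0.00171). Hhex read 8.21 and 8.03 and then 8.31 and 7.91. Pyy, peptide YY, and Krt19 rose by 1.65 and 1.14, and Krt19 was not called without replicate 1 of day 5 or either replicate of day 6 (1.0 to 1.28, adjusted p 0.0508 to 0.11). Of 18 visceral endoderm genes 3 rose, against 11.2% of all genes, namely Rbp4, retinol-binding protein, by 2.53, Afp by 1.67 and Tfpi by 0.69. Afp was not called without either replicate of day 5 or replicate 2 of day 6 (1.30 to 1.80, adjusted p 0.091 to 0.17), and its probe sets ranged from -0.10 to 3.21. Tfpi was not called without either replicate of day 5 or replicate 1 of day 6 (0.49 to 0.89, adjusted p 0.0521 to 0.304).

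Genes of the primitive streak fell in 5 of 21 measured cases and rose in 1, against 6.72% lower and 11.2% higher among all genes. Eomes, a T-box factor of the streak, read 8.33 and 8.28 and then 6.43 and 6.59, a difference of -1.79 (adjusted p = 0.00238). Dll3 fell by 1.68, Rspo3 by 1.34, Dll1 by 0.83 and Evx1 by 0.78, while Nodal rose by 0.88. In the step before, from day 4 to day 5, 10 of these 21 genes had fallen, against 6.17% of all genes. Without replicate 1 of day 5 or of day 6 there were 2 lower calls, and Nodal was not called when any 1 of the 4 arrays was left out (0.70 to 1.06, adjusted p 0.0692 to 0.202). Rspo3, Evx1 and Dll1 each lost the call without at least 2 of the 4 arrays in turn (adjusted p 0.0603 to 0.0812, 0.0635 to 0.151 and 0.0508 to 0.0638).

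Of 24 pluripotency genes, Klf2 and Sox2 rose and none was called lower (limma; 1 lower at an unadjusted p below 0.05), against 11.2% higher and 6.72% lower among all genes. Klf2, which is also a flow-responsive factor of endothelium, read 5.01 and 4.93 and then 7.36 and 7.25, a difference of 2.34 (adjusted p = 1.86e-05). Sox2, which is also a neural factor, rose by 1.70 and was not called without replicate 1 of day 6 (1.56, adjusted p = 0.0539). Pou5f1 (Oct4) and Nanog differed by -1.43 and -0.89, neither called (adjusted p = 0.0755 and 0.364). Both were called lower with the spread of the 14 control arrays only (limma, adjusted p = 0.00137 and 0.00456). Pax6, a neural and eye factor, read 4.31 and 4.39 and then 6.32 and 5.76, a difference of 1.69, with probe sets of both signs. None of 28 proliferation genes was called (limma; 3 at an unadjusted p below 0.05; range -0.34 to 0.52).

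Among signalling genes, 6 of 13 members of the Tgfb and Nodal list were higher, beside 11.2% of all genes. The Bmp list had 3 of 17 higher, Wnt 3 of 18, Fgf 3 of 15 and Notch 1 of 13, and differences between the lists were not tested. Ltbp1, which holds latent Tgfb in the matrix, and the ligand Tgfb2 rose by 1.77 and 1.65, and the receptors Tgfbr2 and Tgfbr3 by 1.14 and 1.06. Tgfb1 rose by 1.11 and was not called without replicate 1 of day 5 or either replicate of day 6 (adjusted p 0.103 to 0.355). Tgfbr3 was not called when any 1 of the 4 arrays was left out (0.99 to 1.12, adjusted p 0.0534 to 0.118). Foxh1, the partner of the Smads in Nodal signalling, fell by 0.63, with no call without replicate 2 of day 5 or replicate 1 of day 6 (-0.51 to -0.46, adjusted p 0.135 to 0.216). Leaving out 1 array gave 3 or 4 higher calls. Spry2, Etv5 and Spry1, targets of Fgf signalling, rose by 1.18, 1.04 and 1.0. Id4 rose by 1.85 and Wnt2, a ligand of early heart mesoderm, by 1.37. The Wnt antagonist Sfrp1 and the receptor Lgr5 fell by 1.13 and 1.0, and Chrd, the Bmp antagonist chordin, by 0.64. Lgr5 was not called when any 1 of the 4 arrays was left out (adjusted p 0.0546 to 0.0965), and Sfrp1 was not called without replicate 1 of day 5 or either replicate of day 6 (adjusted p 0.0685 to 0.129). Smad7, an inhibitor of Bmp and Tgfb signalling, and Id2, a Bmp target, rose by 0.79 and 0.71, neither called when any 1 of the 4 arrays was left out, and the other probe set of Smad7 gave -0.86. Sfrp5 and Rbpj, the DNA-binding partner of Notch, rose by 0.57 and 0.44, each with no call without 3 of the 4 arrays in turn. Rdh10 and Rarb, of retinoic acid supply and response, rose by 1.88 and 1.38, and Rdh10 was not called when any 1 of the 4 arrays was left out (1.73 to 2.03, adjusted p 0.0737 to 0.119).

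The other lists had few calls, most of them lost when single arrays were left out. Among all genes 11.2% were higher and 6.72% lower, and no list was tested against these shares. Of 17 lateral plate and mesenchyme genes, Alx1, a homeobox factor, fell by 1.77 while Ahnak and Bmp4 rose by 1.28 and 0.96. Among 11 primed epiblast genes Sox11 rose by 1.28 and Zic2 fell by 0.87, and among 13 neural genes Pax6 and Sox3 rose, the latter by 0.98, and Hesx1 fell by 0.94. Tfap2a, a factor of surface ectoderm and trophoblast, rose by 0.89, as 1 of 9. The stress list had 3 of 16 higher and 3 lower, with Atf3, a stress-induced factor, at 1.38, the cell cycle inhibitor Cdkn1a at 0.75, the heat shock gene Hspa1b at -1.01 and asparagine synthetase, Asns, at -0.79. Of 14 mitochondrial oxidation genes, Cpt2 and Acadm, of fatty acid oxidation, fell by 0.46 and 0.33, and of 23 ribosomal protein genes, Rpl14, Rpl37 and Rps6 fell by 0.76, 0.51 and 0.42. Among these, Alx1, Pax6, Atf3 and Rpl14 were called with each of the 4 arrays left out in turn. Hesx1 lost the call without replicate 1 of day 5 (-0.70, adjusted p = 0.0793), Sox11 without replicate 1 of day 5 or of day 6 (1.12 to 1.2, adjusted p 0.0987 to 0.124) and Rps6 without replicate 2 of day 5 or replicate 1 of day 6 (-0.38 to -0.36, adjusted p 0.0587 to 0.104). Ahnak, Zic2, Sox3 and Cdkn1a lost it without any 1 of the 4, and Bmp4, Tfap2a, Hspa1b, Asns, Cpt2, Acadm and Rpl37 without 3 of the 4 in turn.

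Outside the lists the largest rises were of Ctla2b and Ctla2a, near-identical protease inhibitor genes whose probe sets may read each other, with 4.07 and 4.06. Dlk1, a secreted regulator of progenitors, read 5.73 and 5.88 at day 5 but 9.96 and 9.69 at day 6, a difference of 4.02. Sphkap, an anchor of protein kinase A, read 4.27 and 4.21 and then 8.39 and 8.07, a difference of 3.99. Vgll2, a cofactor of TEAD factors in muscle, and Hapln1, a link protein of the cardiac jelly, rose by 3.81 and 3.75. Sh3bgr, a gene of striated muscle, Cpeb2, Samd4 and Adgra2 followed with 3.71, 3.19, 3.0 and 3.0. The largest falls were of Fxyd2, a subunit of the sodium pump, from 7.77 and 8.63 to 4.77 and 5.11, a difference of -3.26, and of Eras, an embryonic stem cell Ras gene, with -2.44. Defa31, Penk, Coch, Slco4c1, Cadps2, Slc5a3, Mlf1 and Ifitm1 fell by 1.91 to 2.20. These genes were taken by the size of their difference, and the calls of all 20 held under every alternative that was run. Single probe sets of some differed widely. Of 3 probe sets of Sh3bgr 1 rose, in a range of -0.18 to 3.71. Those of Dlk1 ranged from 0.07 to 4.02, of Samd4 from 0.11 to 3.0, of Sphkap from 0.49 to 3.99 and of Fxyd2 from -4.55 to -0.08.

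The neighbouring steps of the control arm share arrays with this one, so each is given by its own values. From day 4 to day 5, 1353 genes (10.2%) were called, 4% higher and 6.17% lower, and of the 104 heart genes 14 rose and 3 fell, with a median of -0.05. No thick filament gene was among them, and 8 of the 14 were transcription factors. From day 6 to day 8, 1107 genes (8.33%) were called, 5.65% higher, and 39 heart genes rose, with a median of 0.51. Calcium handling then had 11 of 19 genes higher and a median of 0.75, against 8 of 19 and 0.42 from day 5 to day 6. Each gene was assigned to the step of its largest rise over the whole course, whatever the size of that rise. By this count 45 of the 104 heart genes rose most from day 5 to day 6 and 34 from day 6 to day 8. Of all 13297 genes, 2380 were assigned to day 5 to day 6 and 1719 to day 6 to day 8. The intervals are of unequal length. The day 4 control arrays stood apart from each other, with bioB at 9.04 and 6.79, against 8.86 to 9.04 on the arrays of days 0 and 2 and 6.19 to 7.01 on those of days 5 to 10, and with an SD of their difference of 0.34. From day 4 to day 5 there were 305 calls without replicate 1 of day 4, with 4 heart genes higher, 1 heart gene lower and 1 smooth muscle gene lower, and without replicate 2 there were 1819, with 12, 8 and 3. The streak list had 9 lower calls in either case.

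The Sox17 shRNA arm went through the same days. Its targeted gene, Sox17, read 7.77 and 10.08 on the day 5 arrays and 8.60 and 9.39 at day 6, against 10.38 on both control arrays at day 5 but 9.83 and 9.35 at day 6. The 2 arrays of this arm at day 5 thus stood apart, and replicate 2 was near the control level. At day 6, replicate 2 of that arm had 3′ minus 5′ log2 differences of 0.75 for actin and 0.10 for Gapdh, against 0.45 and -0.10 on replicate 1. The part of this in the step was not tested. The day 5 arrays also differed in Hand2, at 5.69 and 8.49, and in Tbx20, at 5.81 and 8.36. From day 5 to day 6 in this arm, 2254 genes (17%) were called, 9.81% higher, with 676 called without replicate 2 of day 6 and 845 without replicate 1 of day 5, and the step differed between the arms for 94 genes (0.707%), 72 of them lower (0.541%). Without replicate 2 of day 5 of that arm 415 genes differed, without replicate 1 of day 5, 60, and without replicate 1 of day 6, 151.

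Many sarcomere genes had a smaller step in the Sox17 shRNA arm. Of 104 heart genes, 20 had a lower step there and none a higher one (limma, adjusted; at an unadjusted p below 0.05, 2 were higher), 6 of 9 in the thick filament and 4 of 10 in the thin. Tnnt2 read 3.91 on both day 5 arrays of that arm and 4.97 and 5.37 at day 6, a step of 1.26 against 7.06, and the steps differed by -5.80 (SE 0.23). Myl7 read 5.03 and 6.19 and then 5.54 and 6.09, a step of 0.20 against 6.04. Ttn and Myh6 had steps of 0.15 and 0.17 against 4.94 and 5.22, and Myocd a step of 1.67 against 4.79. The day 6 levels of Tnnt2, Myl4, Myh6, Ttn and Myocd in that arm lay below all control arrays of day 6. Leaving out 1 control array gave 13 or 14 lower calls, and leaving out replicate 1 of day 5 of the Sox17 shRNA arm gave 14. The differences of Asb2, Mef2c, Myl2, Myl3, Tnni1 and Trim63 were not called when any 1 of the 4 control arrays was left out.

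Some smooth muscle and matrix genes had large steps in both arms. Acta2 read 7.87 and 7.91 and then 11.75 and 12.77 in the Sox17 shRNA arm, a step of 4.37 against 4.76, and the steps differed by -0.39 (95% interval -1.28 to 0.49, adjusted p = 0.893). Col3a1 had a step of 4.67 against 4.56. Hand2, Nexn and Ankrd1 had steps of 2.95, 2.32 and 2.40 against 1.80, 2.53 and 3.17, with no call for the difference. Of 19 smooth muscle genes, Tagln had the smaller step in the Sox17 shRNA arm, 2.41 against 5.02, and Csrp2 the larger, 1.75 against 0.88. The Tagln difference was not called when any 1 of the 4 control arrays was left out (-2.81 to -2.42), and the Csrp2 difference likewise (0.84 to 0.90). The Csrp2 difference was 0.54, with no call, without replicate 1 of day 5 of the Sox17 shRNA arm. The Tagln difference was -2.2 without that array and -2.08 without replicate 1 of day 6 of that arm, both with no call. For none of 21 endothelial genes was the difference between the arms called (limma; 7 at an unadjusted p below 0.05), beside 0.707% of all genes. Their median difference was -0.63, and the absence of calls does not show equal steps.

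**Figure D4:**
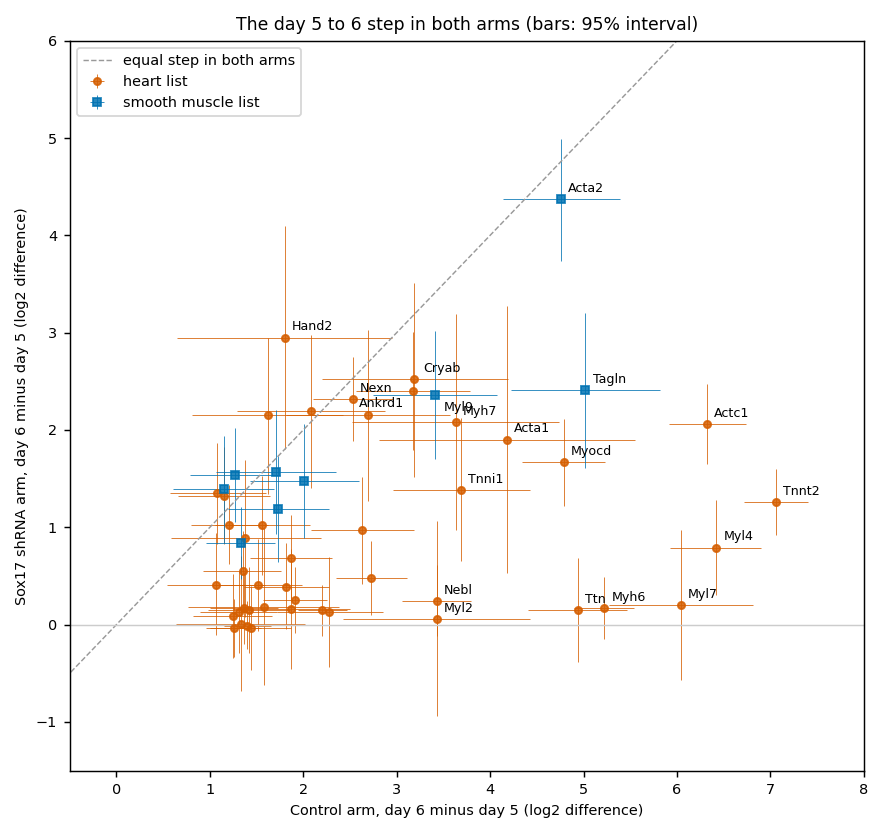
The day 5 to day 6 step in the Sox17 shRNA arm (y axis, log2 difference) against that in the control arm (x axis, log2 difference) for heart and smooth muscle genes called at least 2-fold higher in the control arm; bars are 95% intervals and the dashed line marks equal steps. Acta2 lies at 4.76 and 4.37 near the line, while Tnnt2, Myl4, Myl7, Myh6 and Ttn lie at 0.15 to 1.26 on the y axis.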

How the data were processed

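Total RNA was hybridised to Affymetrix mouse arrays, 1 array a sample. The deposited values are log2 expression per probe set, summarised by the authors with RMA, per the submitters' processing notes; no software version is given in the sources used here. RMA quantile-normalizes arrays to 1 distribution, so differences are relative to the array as a whole. Of 45101 probe sets, the 34958 with 1 gene symbol were used. A probe set was kept if 2 or more of the 27 arrays exceeded 5.53, the median over the whole table, and for each of the 13297 genes left, the kept probe set with the highest average stands for it. This filter passes a gene that is high at any day of either arm. limma 3.58.1 in R 4.3.3 (lmFit, eBayes with an intensity trend, two-sided) fitted 1 mean for each of 14 groups of arm and day, so all groups share the spread (13 residual degrees of freedom), and the code was checked on simulated data. The number of arrays, 2 a group, limits the precision.

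Genes were called at a Benjamini-Hochberg adjusted p below 0.05. The genes, lists, tests and members were chosen with earlier results of these data known. Heart and smooth muscle genes were accounted for by name or by count, other lists were represented by up to 4 called genes of the largest difference with Sox17, Hhex and Cer1 always included, and outside the lists the 10 largest rises and falls with no overlap between days were named. Genes beyond that rule were named after their values were seen. Alternatives left out single arrays, added the replicate number as a block, and changed the arrays in the fit, the variance model, the filter, the probe set rule and the scaling. RefSeq promoters (GRCm38.p6) were searched on both strands.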

Additional observations from a re-analysis of the deposited data

Results flagged for a closer look

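The step from day 5 to day 6 differed between the Sox17 shRNA arm and the control arm, by the interaction test at an adjusted p below 0.05, for 33 of the genes named here. The values are the Sox17 shRNA step minus the control step, in log2 units. Among heart genes the differences were those of Myl7 (-5.83), Tnnt2 (-5.80), Myl4 (-5.62), Myh6 (-5.05), Ttn (-4.79), Actc1 (-4.27), Myl2 (-3.37), Nebl (-3.18), Myocd (-3.12), Tnni1 (-2.31), Ryr2 (-2.25), Unc45b (-2.15), Mybpc3 (-2.05), Mef2c (-1.66), Myom1 (-1.66), Asb2 (-1.47), Myl3 (-1.43), Smpx (-1.41), Rbm20 (-1.29) and Trim63 (-1.20), all 20 lower. Outside the heart lists the lower ones were Sphkap (-4.04), Vgll2 (-3.60), Tagln (-2.61), Sh3bgr (-2.13), Etv5 (-2.06), Pax6 (-1.63), Hk2 (-1.61), Pyy (-1.30), Nid2 (-1.28) and Col18a1 (-0.94). The higher ones were Csrp2 (0.87), Alx1 (1.70) and Slco4c1 (2.28). Sphkap and Vgll2 stood at 4.18 to 4.32 on the control arrays of day 5 and had steps of -0.05 and 0.21 in the Sox17 shRNA arm against 3.99 and 3.81, while Etv5 had a step of 1.04 in the control arm and of -1.02 in the Sox17 shRNA arm. Slco4c1 and Alx1 fell in the control arm by 2.03 and 1.77 and had steps of 0.26 and -0.06 in the other. Of the 33 differences, 17 were called under all alternatives that were run, and the other 16 were lost under at least 1.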

How the results depend on the processing

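Of 210 measured genes named in the text, 127 had the same call from day 5 to day 6 under all alternatives. Leaving out 1 of the arrays gave 857 to 2541 calls for the control step in place of 2382, 607 to 1567 higher and 223 to 978 lower, 676 to 2396 for the Sox17 shRNA step in place of 2254, 41 to 415 for the difference between arms in place of 94, 218 to 1819 for day 4 to 5 in place of 1353 and 337 to 1203 for day 6 to 8 in place of 1107. With the 14 control arrays only there were 4229 calls (2462 higher, 1767 lower), and 3112 for day 4 to 5 and 2774 for day 6 to 8. With the 4 arrays of days 5 and 6 alone there were 4316 (2567 higher, 1749 lower). Of named genes with no call, 9 were called with the 14 control arrays only, Cacna1h, Cox7a1, Gata6, Gja1, Lmod1, Nanog, Pln, Pou5f1 and Sox17. With the 4 arrays alone 10 were called, the same genes without Gja1 and with Hand1 and Tbx20. Centring arrays on the median gave 1415 lower calls and repeated quantile normalization 1429, with 48.1% and 48.6% of calls higher. Smad7 turned to -0.03 as the mean of its probe sets and to -0.86 by the probe set with the largest interquartile range, and Hhex to 0.08 without replicate 1 of day 5 and 0.19 without replicate 2 of day 6, in a range of -0.21 to 0.19 with 1 array left out. Actb turned to -0.50 by the probe set with the largest interquartile range. Of uncalled genes with a difference near 0, Ckm turned to -0.07, Synm to -0.07 and Tnni3 to -0.04 with arrays centred on the median, Synm to -0.05 and Tnni3 to -0.10 with repeated quantile normalization, and Mylk to 0.26 as the mean of its probe sets and 0.54 by the probe set with the largest interquartile range. With 1 array left out, Ckm ranged from -0.04 to 0.05, Isl1 from -0.30 to 0.01, Mb from -0.34 to 0.15, Myh7b from -0.16 to 0.08, Mylk from -0.14 to 0.10, Nrap from -0.14 to 0.10, Synm from -0.03 to 0.04 and Tnni3 from -0.07 to 0.14. The cause was not tested. Replicate differences at day 5 and day 6 correlated at -0.0114 over genes, which does not show whether arrays of the same replicate number were paired. The replicate block gave 2695 calls. Of 107 named genes with more than 1 probe set, 19 had probe sets of both signs. Probe sets near the low end of the array understate rises. The counts of every list under each alternative and the fits without a day 4 array were added after seeing the data.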
